A study of Mus musculus with 3 samples.

Results

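The genes described here encode 9 subunits of integrins, the cell surface receptors through which leukocytes hold on to vessel walls and most cells hold on to the extracellular matrix. They were chosen by name, in 2 groups. The first group was Itgb2, the beta chain restricted to leukocytes, with its alpha partners Itgam, Itgal and Itgax. The second was the vascular and matrix group of Itga4, Itga5, Itgav, Itgb1 and Itgb3. All 9 of 9 genes were found among 22180 genes with a probe set annotated to a single symbol. Itgav had 2 such probe sets, of which the one with the higher mean was taken, and each of the others had 1.

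The study placed caveolin-related agents in the vitreous of C57 mice and measured retinal RNA on whole-transcript arrays, with 1 array per group. The array labelled Cav1-shRNA held retinae collected 2 days after a short hairpin RNA named for Cav1, the main coat protein gene of caveolae. The cavtratin array held retinae collected 2 hr after cavtratin, a cell-permeable peptide with the scaffolding domain of caveolin-1, and the AP control array held retinae collected 2 hr after AP, which the labels do not spell out. The RNA on an array came from a pool of 5 to 6 retinae, all groups received an intravitreal injection, and the labels give neither the age of the mice nor an uninjected group.

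Values are given as deposited, read as log2, and differences are differences of those values. A floor of 6.50, the median probe set mean, marked genes treated as measurable. With no replicates, no p-value or SD exists for any difference, and each difference compares 2 arrays. As the one error measure within these arrays, pairs of probe sets of the same gene were compared over 271 genes. In 95% of them the differences of both probe sets lay within 0.34 of each other for cavtratin minus AP control, 0.29 for Cav1-shRNA minus AP control and 0.31 for Cav1-shRNA minus cavtratin. This gap holds no spread between animals or pools. Cav1 itself had a value of 8.26 in all 3 arrays, so the targeted gene had no lower value in the array labelled Cav1-shRNA, and each direction drawn from that array is given with this limit. Exact ties were common, so a tie does not show an equal level. Among 11510 genes that reached the floor in some array, 43.2% had the same value in all 3 arrays and 75.3% in at least 2. Of the 9 members, 6 were tied in at least 2 arrays, but these include Itgax and Itgb3, which reached the floor in no array. Rod markers were high throughout, and the 5 measured averaged 12.07 in the array labelled Cav1-shRNA, 12.05 in cavtratin and 12.08 in AP control.

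An integrin reaches the cell surface as a pair of an alpha and a beta chain, so the level of a beta chain transcript does not by itself say which receptor is made. Integrins with the Itgb2 chain let circulating leukocytes arrest on endothelium, crawl and take up opsonised particles, and in the retina they are carried by microglia and by infiltrating blood cells. Integrins with Itgb1, Itgb3 and Itgav bind fibronectin, laminins, vitronectin and thrombospondins, and serve vessels, glia and retinal pigment epithelium, where Itgav takes part in the uptake of shed photoreceptor tips.

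Of the 9 genes, Itgb2 and Itgam were far higher in the cavtratin array than in AP control, and the others differed by at most 0.33. Itgb2 had a value of 7.71 in the array labelled Cav1-shRNA, 8.53 in cavtratin and 6.70 in AP control. Itgam, which encodes CD11b, the alpha chain of a complement receptor on microglia, monocytes and neutrophils, had a value of 7.15 in the array labelled Cav1-shRNA, 7.998 in cavtratin and 6.32 in AP control. Both genes were highest in cavtratin and lowest in AP control, with the array labelled Cav1-shRNA in between. On the linear scale Itgb2 was 3.53-fold and Itgam 3.19-fold higher in cavtratin than in AP control, or 1.82 and 1.68 in log2, far more than the gap of 0.34 between probe sets of one gene. In AP control Itgam lay below the floor, so its folds over AP control can be too small. Ptprc, the pan-leukocyte phosphatase CD45, was at 7.71 in the array labelled Cav1-shRNA, 8.49 in cavtratin and 7.09 in AP control. In bulk retina, more cells of a type and more RNA per cell cannot be told apart, and the part of leukocyte number in the Itgb2 and Itgam values was not tested.

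**Figure D1:**
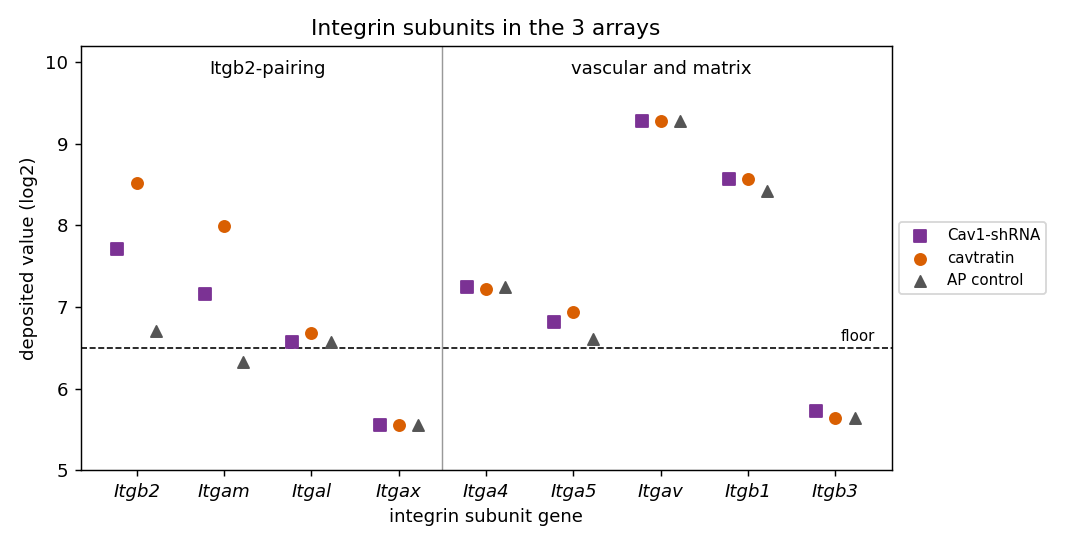
Deposited log2 value of each integrin subunit in the arrays of Cav1-shRNA (squares), cavtratin (circles) and AP control (triangles), 1 array each. The dashed line is the floor of 6.50. Itgb2 and Itgam stand apart between the arrays, at 8.53 and 7.998 in cavtratin against 6.70 and 6.32 in AP control, while Itgax and Itgav lie at the same height in all 3.

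Of the remaining alpha partners of Itgb2, Itgal reached the floor. Itgal, the CD11a chain of lymphocytes and most other leukocytes, was at 6.57 in the array labelled Cav1-shRNA, 6.68 in cavtratin and 6.57 in AP control. Its difference of 0.11 in cavtratin minus AP control lay inside the gap seen between probe sets of one gene. Itgax, the CD11c chain best known from dendritic cells and reactive microglia, was at 5.56 in all 3 arrays, below the floor. Itgad, a further alpha partner that is found on some macrophages, was at 4.07 in all 3 arrays, also below the floor. A value below the floor gives little room to see a difference, so no statement on Itgax or Itgad follows from these ties.

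Itgam and Itgax are neighbours on chromosome 7 in the RefSeq annotation of GRCm38.p6, followed by Itgad, with no other protein-coding gene between them. The bases before the start of Itgam and Itgax are shown because these are neighbouring genes of one receptor family. Of them Itgam had a large difference, and Itgax lay below the floor, where its tie says little. The sequences are the 250 bases before each gene start from RefSeq, 5′ to 3′ on the plus strand of GRCm38.p6. Capitals mark AGGAAG, a form of the GGAA core that myeloid ETS factors such as PU.1 bind.
Itgam, chr7:128062390-128062639: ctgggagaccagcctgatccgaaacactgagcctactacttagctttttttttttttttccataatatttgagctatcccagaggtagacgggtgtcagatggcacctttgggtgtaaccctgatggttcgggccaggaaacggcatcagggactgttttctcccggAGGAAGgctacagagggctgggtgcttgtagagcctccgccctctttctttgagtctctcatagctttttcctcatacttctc
Itgax, chr7:128129300-128129549: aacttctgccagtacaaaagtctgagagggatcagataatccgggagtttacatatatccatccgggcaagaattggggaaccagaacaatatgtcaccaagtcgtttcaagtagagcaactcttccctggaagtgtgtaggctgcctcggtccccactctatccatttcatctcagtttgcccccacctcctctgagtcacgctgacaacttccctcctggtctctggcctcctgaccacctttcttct
AGGAAG was searched on both strands, where the other strand reads CTTCCT, and it contains GGAA (TTCC). Itgam held 1 match, starting at position −83 from the gene start, and Itgax held 0. Each of these windows held 4 matches to GGAA on either strand. Over all 32851 promoter windows of that table, 29.5% held AGGAAG and 93.4% held GGAA, and among the other members with a sequence Itgav held 1 and Itgb1 held 2 AGGAAG matches while Itga4 and Itga5 held 0. The motif was therefore present before Itgam and also before Itgav, which was tied in all 3 arrays. No window was available for Itgb2, Itgal and Itgb3.

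Among the vascular and matrix subunits, Itga5 had the largest differences. Itga5, the alpha chain of the main fibronectin receptor, was at 6.81 in the array labelled Cav1-shRNA, 6.94 in cavtratin and 6.61 in AP control. It shared the order of Itgb2 and Itgam, and it was the only other member with a different value in every array, but its difference of 0.33 in cavtratin minus AP control was just inside the gap between probe sets of one gene. Itgb1, the beta chain shared by most matrix receptors and the partner of Itga4 and Itga5, was at 8.57 in the array labelled Cav1-shRNA and in cavtratin and at 8.42 in AP control. That difference of 0.15 was the same in both comparisons with AP control, which share 1 array.

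Itga4, the alpha chain that binds VCAM1 and fibronectin and is carried by monocytes and lymphocytes, was at 7.24 in the array labelled Cav1-shRNA, 7.22 in cavtratin and 7.24 in AP control. Itgav, the alpha chain of the vitronectin receptors, was at 9.28 in all 3 arrays, and its second probe set was also tied, at 4.48. Itgb3, which pairs with Itgav and, on platelets, with Itga2b, lay below the floor at 5.73 in the array labelled Cav1-shRNA and 5.64 in both cavtratin and AP control. None of these genes differed between any pair of arrays by more than 0.09.

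Read as groups, the Itgb2-pairing subunits had a median difference of 0.89 in cavtratin minus AP control, and the vascular and matrix subunits a median of 0. Of the 9 members, 7 were at or above the floor in the higher of both arrays, and 2 were at least 2-fold higher in cavtratin, where the share among 11477 genes reaching the floor was 1.36%. In this comparison 0 of the 9 were at least 2-fold lower, against a background of 0.0958%. Larger differences than that of Itgb2 were found in 69 genes, and larger ones than that of Itgam in 80. The median over all 22180 genes was 0, and 54.5% of those 11477 genes were exactly equal. The median of 0.89 is the midpoint between Itgal at 0.11 and Itgam at 1.68, and no gene of the first group lay near it. With 4 and 5 genes, the group medians describe these genes and no wider class.

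The array labelled Cav1-shRNA, taken at 2 days, had its largest member differences from AP control, taken at 2 hr, in Itgb2 and Itgam. Itgb2 was higher by 1.01 and Itgam by 0.83, or 2.01-fold and 1.78-fold, beyond the gap of 0.29 between probe sets. Itga5 was higher by 0.20, Itgb1 by 0.15 and Itgb3, below the floor, by 0.09, and the other 4 members were exactly equal. Thus 1 of 9 members was at least 2-fold higher, where 0.341% of 11433 genes were, and Itgb2 lay only just past that threshold. None was 2-fold lower, where 0.122% of genes were. At a threshold of 1.5-fold both Itgb2 and Itgam counted, against 0.901% of genes. Medians were 0.42 for the Itgb2-pairing and 0.09 for the vascular and matrix subunits, beside 0 over all genes. Agent and time differ together here and cannot be told apart.

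Set against each other directly, without the AP control array, the array labelled Cav1-shRNA was lower than cavtratin, with a difference of −0.84 for Itgam and −0.81 for Itgb2, beyond the gap of 0.31. Neither reached 2-fold, which 0.785% of 11472 genes did in the lower direction, and both passed 1.5-fold, as 1.53% did. In the higher direction 0 members and 0.0349% of genes were 2-fold apart. The next largest differences among the members were those of Itga5 at −0.13 and Itgal at −0.11, both inside the gap between probe sets. Lower values than that of Itgam were found in 112 genes.

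**Figure D2:**
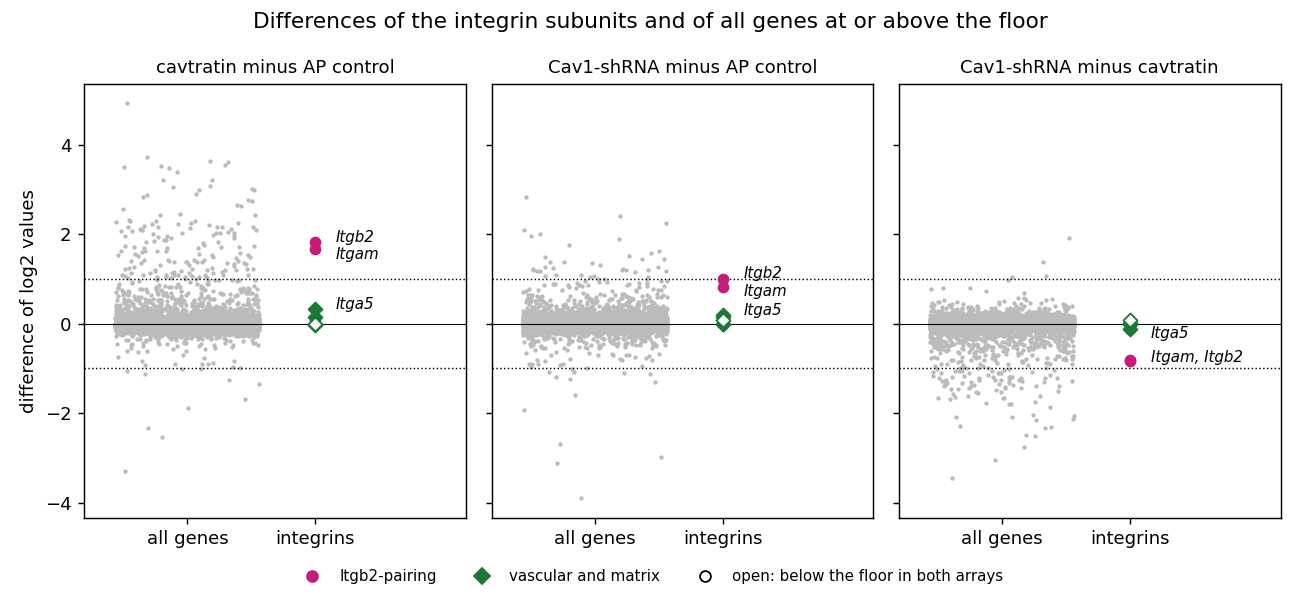
Differences of log2 values in the comparisons of cavtratin with AP control, Cav1-shRNA with AP control and Cav1-shRNA with cavtratin. Grey points are all genes at or above the floor, spread sideways at random, circles are Itgb2-pairing and diamonds vascular and matrix subunits, open where the gene was below the floor in both arrays, and dotted lines mark 2-fold. Itgb2 and Itgam lie at 1.82 and 1.68 in the first panel and at −0.81 and −0.84 in the third, and the other members lie between −0.13 and 0.33 in all panels.

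Markers of neutrophils and of leukocytes in general were higher beside Itgb2 and Itgam. Of 10 neutrophil markers, 9 were higher in cavtratin than in AP control, where 17.5% of all measured genes were. Among the 10, 6 were at least 2-fold higher, against 1.36% of genes reaching the floor. Of these, S100a8, S100a9, Mmp8 and Retnlg lay below the floor in AP control. They counted only through the cavtratin array, where they were high, so their folds are uncertain and the count is a description alone. The list had a median of 1.59 and mean levels of 7.91 in cavtratin and 6.46 in AP control. In Cav1-shRNA minus AP control 9 of 10 were higher too, where 22.4% of all measured genes were. Only 1 was at least 2-fold higher, S100a8 at 1.46, against 0.341% of genes, and the median was 0.25. These counts of higher markers include genes below the floor in all arrays, such as Ly6g. The list of 7 general leukocyte markers, which shares Coro1a with the list of leukocyte integrin signalling genes, averaged 7.40 in the array labelled Cav1-shRNA, 7.86 in cavtratin and 6.89 in AP control. All 7 were higher than AP control in both arrays. Cd52, below the floor in all arrays, gave both median differences, 0.49 in cavtratin and 0.47 in the array labelled Cav1-shRNA. At least 2-fold higher were 3 in cavtratin and 1 in the array labelled Cav1-shRNA, beside the same shares over all genes. Over the 5 markers at or above the floor the medians were 1.40 in cavtratin and 0.60 in the array labelled Cav1-shRNA. The 7 monocyte markers had a median difference of 0.20 from AP control in each of these arrays, that of Ccr2, which lay below the floor. F13a1 was higher by 1.83 in cavtratin and by 1.09 in the array labelled Cav1-shRNA, while Ly6c2 differed by −0.43 and 1.49. In cavtratin 1 of the 7 was at least 2-fold higher, against 1.36% of genes reaching the floor. In the array labelled Cav1-shRNA 2 were, against 0.341%. F13a1, counted in both, was at 5.99 in AP control, below the floor, so its differences are uncertain. Of 9 measured markers of resident microglia, 4 reached the floor and 0 were 2-fold apart in any comparison. P2ry12 and Olfml3 were at or above the floor and tied in all arrays, and Gpr34 and Siglech were tied below it. Csf1r was the microglia marker with the largest difference, at 7.80 in the array labelled Cav1-shRNA, 7.81 in cavtratin and 7.50 in AP control.

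Markers of lymphocytes and platelets lay below the floor. This held in all arrays for the 7 T and NK cell markers, the 3 measured B cell markers and the 4 measured platelet markers. Among the last, the chemokine Pf4 was at 6.31 in the array labelled Cav1-shRNA, 6.32 in cavtratin and 5.57 in AP control. Ppbp was at 6.05 in the array labelled Cav1-shRNA, 6.46 in cavtratin and 5.35 in AP control, while Itga2b and Gp9 were tied in all 3 arrays. Among 6 lens markers, the crystallin genes Cryaa, Cryba1 and Crygs were higher in cavtratin than in AP control by 2.83, 3.08 and 2.77. Mip, above the floor, differed by −0.06, Lim2 was tied below the floor, and Bfsp1, also below it, was higher by 0.52. Mean levels over the 6 genes were 7.06 in the array labelled Cav1-shRNA, 8.69 in cavtratin and 7.17 in AP control. The part of lens genes in the result was not tested. Endothelial markers, which bear on the vascular integrins, had medians above AP control of 0.13 in cavtratin and 0.22 in the array labelled Cav1-shRNA over 8 genes, with 0 genes 2-fold apart. Rod, Muller glia, pericyte, dendritic cell and retinal pigment epithelium markers also held 0 genes 2-fold apart in any comparison.

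**Figure D3:**
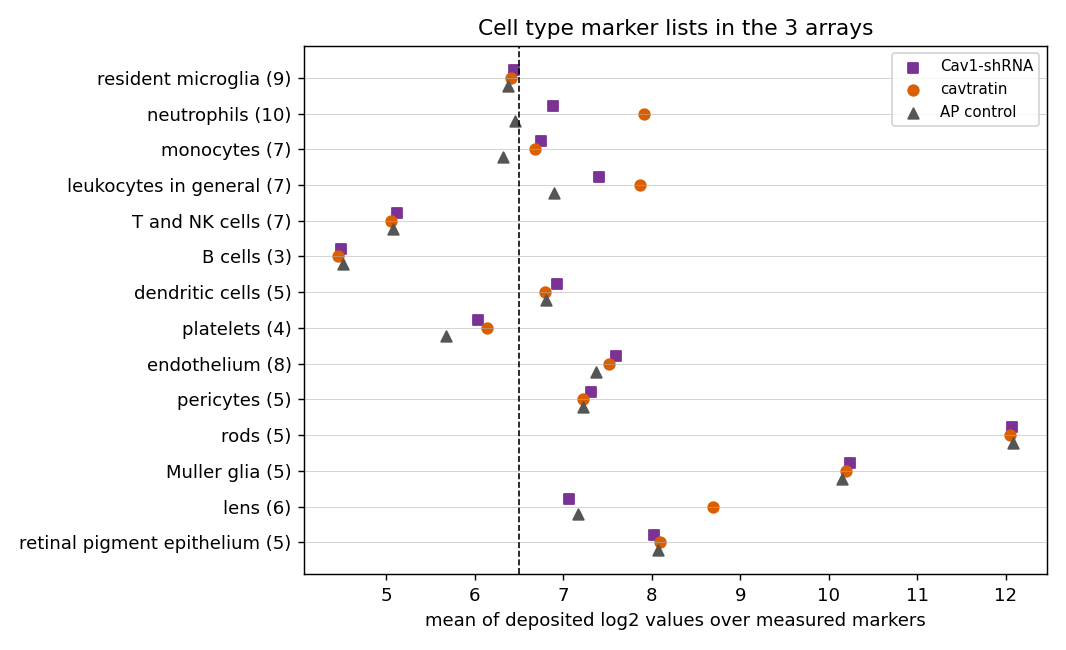
Mean of the deposited log2 values over the measured markers of each cell type (number in brackets) in the arrays of Cav1-shRNA (squares), cavtratin (circles) and AP control (triangles). The dashed line is the floor of 6.50. Neutrophil markers average 6.88 in Cav1-shRNA, 7.91 in cavtratin and 6.46 in AP control, while resident microglia markers average 6.44 in Cav1-shRNA, 6.41 in cavtratin and 6.38 in AP control.

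The remaining integrin genes held no 2-fold difference. Of 17 further subunits listed, 16 were measured and 6 were at or above the floor. None of the 16 was 2-fold apart in any comparison. Itgb8, a partner of Itgav on glia and neurons that activates TGF-beta, was at 8.998 in the array labelled Cav1-shRNA, 8.89 in cavtratin and 9.09 in AP control. Itga6, a laminin receptor chain, was at 7.21 in both the array labelled Cav1-shRNA and cavtratin and at 7.10 in AP control. Itgb5, another partner of Itgav, was at 8.57 in the array labelled Cav1-shRNA, 8.49 in cavtratin and 8.48 in AP control. Over all 25 measured integrin subunits, the 23 other than Itgam and Itgb2 spanned −0.20 (Itgb8) to 0.33 (Itga5) in cavtratin minus AP control and −0.10 (Itga8, below the floor) to 0.20 (Itga5) in Cav1-shRNA minus AP control.

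Several genes that act in leukocyte integrin activation and signalling were higher in the cavtratin array. Of 18 measured genes of that list, 12 reached the floor, 11 lay above 0, 0 below and 7 were at least 2-fold higher in cavtratin minus AP control. Over all measured genes 17.5% lay above 0, and 1.36% of genes reaching the floor were at least 2-fold higher. The list median was 0.41, beside 0 over all genes. Syk, the tyrosine kinase that acts below Itgb2 and immunoreceptors, was at 7.18 in cavtratin and 5.42 in AP control, and Vav1, a guanine nucleotide exchange factor of blood cells, was at 7.63 in cavtratin and 6.10 in AP control. The adaptors with immunoreceptor activation motifs that Syk binds, Fcer1g and Tyrobp, were higher by 1.85 and 1.38. Fyb, an adaptor, was higher by 1.21, Fgr, a Src family kinase of myeloid cells, by 1.06 and Lcp2, the SLP-76 scaffold, by 1.05. In AP control Syk, Vav1, Fyb and Fgr lay below the floor.

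Other genes of that list had smaller differences or lay below the floor. Fermt3, the kindlin of blood cells that binds integrin beta tails, was at 5.81 in all 3 arrays and Parvg, a leukocyte parvin, at 6.19 in all 3, both below the floor, where a tie says little. Apbb1ip, which links Rap1 to talin, was higher by 0.76 in cavtratin than in AP control, and Skap2, an adaptor, by 0.50. In Cav1-shRNA minus AP control 13 of the 18 genes lay above 0, where 22.4% of all measured genes did, and 0 below. At least 2-fold higher was 1, Fcer1g at 1.09, against 0.341% of genes reaching the floor, and the median was 0.15. Vav1 was higher there by 0.88, Tyrobp by 0.77 and Lcp2 by 0.20. Against cavtratin directly, 10 of the 18 were lower in the array labelled Cav1-shRNA, as were 16.8% of all measured genes, and 2 higher. Of the list 0 were at least 2-fold lower, against 0.785% of genes reaching the floor, and the median was −0.20. The lowest were Syk at −0.87, Lcp2 at −0.85, Fcer1g at −0.77 and Apbb1ip at −0.69.

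The adaptors that integrins of all cells share held no 2-fold difference. Of 16 measured focal adhesion and shared adaptor genes, all at or above the floor, 0 were 2-fold apart in any comparison and the median was 0 in each. Flna, the actin cross-linker filamin A, which binds beta tails, was at 8.50 in the array labelled Cav1-shRNA, 8.78 in cavtratin and 8.47 in AP control. Rap1b, a GTPase that triggers integrin activation, was at 10.27 in the array labelled Cav1-shRNA, 10.47 in cavtratin and 10.23 in AP control. Tln1, the talin that connects beta tails to actin, was higher by 0.08 in both comparisons with AP control, and Pxn, the scaffold paxillin, was higher by 0.12 in cavtratin and by 0.17 in the array labelled Cav1-shRNA.

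**Figure D4:**
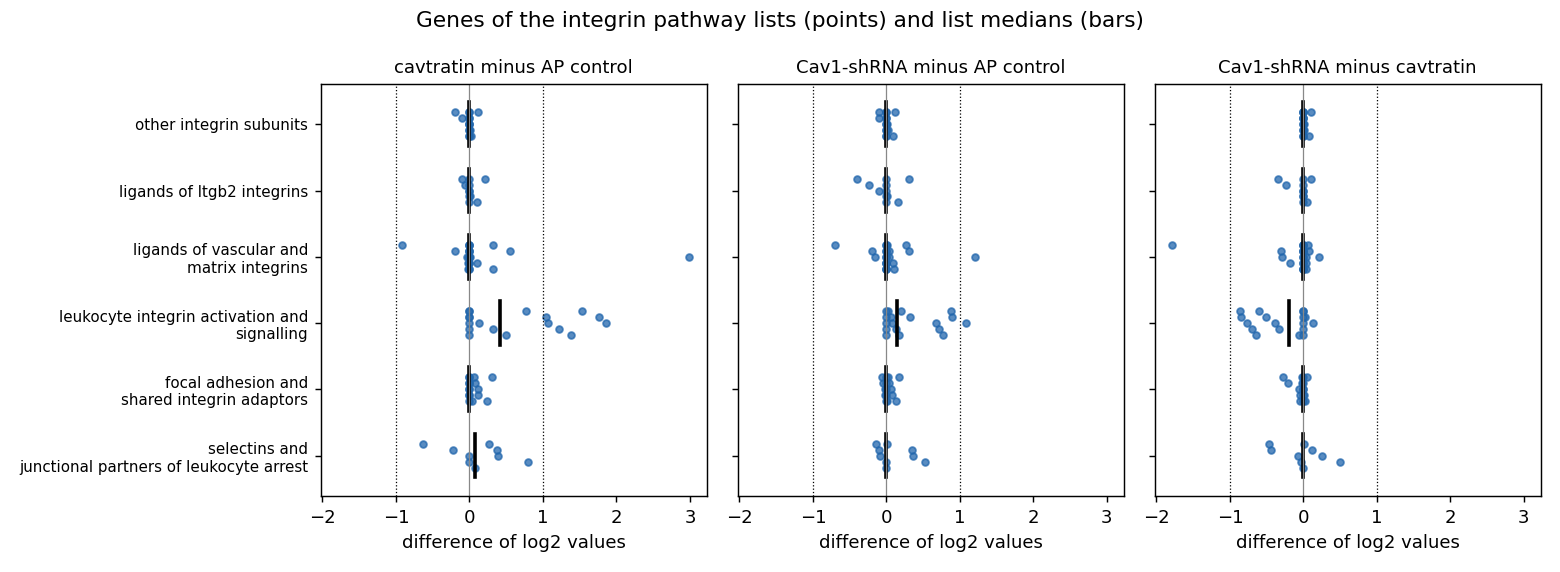
Differences of log2 values for each measured gene (points) of 6 lists of integrin subunits, ligands and signalling genes in the comparisons of cavtratin with AP control, Cav1-shRNA with AP control and Cav1-shRNA with cavtratin, with list medians as bars and dotted lines at 2-fold. The leukocyte signalling list has a median of 0.41 in cavtratin minus AP control, 0.15 in Cav1-shRNA minus AP control and −0.20 in Cav1-shRNA minus cavtratin, while the medians of other subunits, both ligand lists and shared adaptors lie at 0.

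Ligands of the Itgb2 integrins did not differ by 2-fold. Icam1, the endothelial ligand of Itgal and Itgam, was at 6.54 in the array labelled Cav1-shRNA, 6.88 in cavtratin and 6.94 in AP control. F11r, the junctional molecule JAM-A, was at 7.31 in the array labelled Cav1-shRNA, 7.21 in cavtratin and 7.01 in AP control. Of 11 measured genes, 3 lay above 0 and 2 below in cavtratin minus AP control, where 3879 and 4644 of all 22180 genes did. In Cav1-shRNA minus AP control 3 lay above and 3 below, where 4973 and 4098 of all genes did. The list median was 0 in each comparison. The fibrinogen genes Fga, Fgb and Fgg were below the floor in all arrays.

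Ligands of the vascular and matrix integrins included larger differences of both signs. Thbs1, thrombospondin 1, which binds Itgav with Itgb3 and other integrins, was at 9.16 in the array labelled Cav1-shRNA, 10.94 in cavtratin and 7.96 in AP control. Vcam1, the endothelial and glial ligand of Itga4, was lowest where Itgb2 was highest, with 8.05 in the array labelled Cav1-shRNA, 7.83 in cavtratin and 8.75 in AP control. Its difference from AP control was −0.92 in cavtratin and −0.70 in the array labelled Cav1-shRNA, short of 2-fold. Fn1, fibronectin, was at 8.82 in the array labelled Cav1-shRNA, 9.11 in cavtratin and 8.55 in AP control. Nid1, a basement membrane protein, was higher than in AP control by 0.31 in the array labelled Cav1-shRNA and by 0.32 in cavtratin, and Tnc, tenascin C, was at 7.32 in the array labelled Cav1-shRNA and 7.63 in cavtratin. Of 23 measured genes, 6 lay above 0 and 5 below in cavtratin minus AP control, with a median of 0. Over all 22180 genes 3879 lay above 0 and 4644 below, and no trait of the list is read from these counts. At least 2-fold higher was 1 of the 23, Thbs1, against 1.36% of genes reaching the floor.

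Molecules of leukocyte rolling and passage were mixed. Selplg, the selectin ligand on leukocytes, was at 8.09 in the array labelled Cav1-shRNA, 8.53 in cavtratin and 7.72 in AP control, in the order of Itgb2. Cd44, a hyaluronan receptor, was at 7.85 in the array labelled Cav1-shRNA, 8.31 in cavtratin and 7.94 in AP control. The endothelial junction genes Pecam1 and Cdh5 were higher than in AP control by 0.38 and 0.27 in cavtratin and by 0.35 and 0.53 in the array labelled Cav1-shRNA. Over 9 measured genes the median was 0.07 in cavtratin minus AP control and 0 in both other comparisons, and 0 genes were 2-fold apart. The endothelial selectins Selp and Sele were below the floor in all arrays.

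The genes nearest to Itgb2 and Itgam in pattern over the 3 arrays included Syk and Plbd1 for both. Nearness was the Euclidean distance over the differences of cavtratin and of Cav1-shRNA from AP control, among genes at or above the floor in at least 1 array, and 5 genes were taken for each. For Itgb2 they were Mmp8, a neutrophil collagenase, at a distance of 0.07, F13a1, a coagulation factor chain made by monocytes and macrophages, at 0.08, Fcer1g at 0.08, Plbd1, a lysosomal phospholipase-like protein, at 0.10, and Syk at 0.13. For Itgam they were Syk at 0.11, Plbd1 at 0.13, Cd84, a leukocyte adhesion receptor of the SLAM family, at 0.13, Vav1 at 0.15 and Slfn1, a schlafen gene, at 0.19. With 3 arrays and a shared AP control such nearness rests on 2 differences. Of these genes Fcer1g and Plbd1 reached the floor in AP control, and the others lay below it there, so their differences and distances are uncertain.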

How the data were processed

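RNA of pooled retinae was measured on 3 Affymetrix whole-transcript arrays, 1 per group, per the labels' protocols. The deposited values lie on a scale read as log2 from their range. How the authors summarised and normalized them, and the log base, is not given in the sources used here. The sorted columns differed by at most 0.209, and 41.4% of 41345 probe sets were exactly equal in all 3 arrays, to within 1e-09. A platform annotation gave 1 symbol to 23521 probe sets and several to 1814, and did not list 16010. Entrez identifiers were set against RefSeq names of GRCm38.p6, and 0 symbols changed. The highest-mean probe set stood for a gene.

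A gene counted as 2-fold apart when its log2 difference was at least 1 and the higher array reached the floor of 6.50. No test was possible with 1 array per group, and the number of arrays limits the precision. Members and lists were chosen with earlier results of these data known. Named were all members, up to 4 genes per list and comparison with the largest absolute differences at or above the floor, and the 5 nearest genes to members at least 0.5 apart from AP control. Further genes of the lists and the markers were named after their values were seen. Alternatives were median centring, quantile normalization, loess subtraction (span 0.3), the mean of all probe sets, other floors, and thresholds of 1.5-fold and 3-fold. The counting was run on simulated data with independent noise and no ties, unlike these data, so that run checked the code alone. Python 3.11.15, pandas 2.3.3, numpy 2.4.6 and statsmodels 0.14.6 were used. Protein sequences were not used here.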

Additional observations from a re-analysis of the deposited data

Results flagged for a closer look

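A probe set annotated to both Cerkl and Itga4, neighbouring genes in the RefSeq annotation of GRCm38.p6, was left out of all comparisons because it names 2 genes. It was at 9.35 in the array labelled Cav1-shRNA, 9.30 in cavtratin and 9.18 in AP control. It drew attention as a signal outside the comparisons that was 0.16 higher in the array labelled Cav1-shRNA than in AP control, while the probe set of Itga4 alone was exactly equal in both. The difference lay inside the gap of 0.29 within which 95% of probe set pairs of one gene fell, and it was not tested.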

How the results depend on the processing

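No paired analysis was possible because each group had 1 array, and for the same reason no array could be left out. Each member kept its value to within 0.06 under median centring, quantile normalization, loess subtraction and the mean of all probe sets. In cavtratin minus AP control Itgb2 stayed between 1.82 and 1.83 and Itgam at 1.68. These settings are a weak check. Each member but Itgav had 1 probe set and both of Itgav were tied, so the mean of all probe sets could change no difference. Median centring moves all genes by one shift, −0.058 before centring in Cav1-shRNA minus AP control and smaller in the others. In Cav1-shRNA minus AP control Itgb2 stayed between 1.01 and 1.07. Counts over all genes followed the threshold. At 1.5-fold, 251 genes were higher and 27 lower in cavtratin minus AP control, 103 and 42 in Cav1-shRNA minus AP control, and 11 and 175 in Cav1-shRNA minus cavtratin. At 3-fold the counts were 86 and 5, 9 and 6, and 1 and 26. At 1.5-fold 2 members were higher in Cav1-shRNA minus AP control and 2 lower in Cav1-shRNA minus cavtratin, and at 3-fold 0 were higher in Cav1-shRNA minus AP control. The leukocyte signalling list had means of 0.64 and 0.33 in the comparisons of cavtratin and Cav1-shRNA with AP control, and over genes at or above the floor medians of 1.05 in cavtratin minus AP control and −0.56 in Cav1-shRNA minus cavtratin. Matrix ligands had a mean of 0.13 in cavtratin minus AP control. Rolling and passage genes had a mean of 0.10 in Cav1-shRNA minus AP control and a median of 0.27 at or above the floor in cavtratin minus AP control. The floor keeps genes that are high in 1 array, so its medians are no firmer values. The other 326 values recomputed stayed close to those reported.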

Other observations

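Not every leukocyte gene followed the order of Itgb2 and Itgam. Ly6c2, a surface antigen of inflammatory monocytes, was at 8.08 in the array labelled Cav1-shRNA, 6.16 in cavtratin and 6.59 in AP control, and H2-Aa, a class II antigen presentation gene, was at 7.74 in the array labelled Cav1-shRNA and 7.05 in both cavtratin and AP control. Both were highest at 2 days, where Itgb2 and Itgam lay between the other arrays. The neutrophil markers Retnlg and Cxcr2 were highest in cavtratin. Retnlg was at 5.41 in the array labelled Cav1-shRNA, 7.02 in cavtratin and 5.07 in AP control, the first and last below the floor, and Cxcr2 was at 6.81 in the array labelled Cav1-shRNA, 8.08 in cavtratin and 6.58 in AP control.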
